A study of Mus musculus with 4 samples.

Results

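Cell cycle and DNA replication genes were followed in single cells of mouse liver. The set held 45 genes of the 31053 in the deposited matrices, chosen by gene symbol and not by any measured value, and each had at least 1 UMI (unique molecular identifier, the count of 1 captured RNA molecule) in every library. For the description they fell into 13 replication members, 28 mitosis members and 4 widely expressed members (Stmn1, H2afz, Hmgb2 and Tuba1b). The series follows the course from obesity to hepatocellular carcinoma (HCC) in C57BL/6 mice fed a choline-deficient high-fat diet (CD-HFD). It had 4 libraries, 1 for each group. The HCC library came from a cell suspension of the tumour region. The high-AFP library (high alpha-fetoprotein, AFP), the low-AFP library on CD-HFD and the control library on the control diet came from liver cells. The title of the high-AFP library names the control diet, while the name of its deposited data gives CD-HFD, so its diet is unsettled and a difference between high-AFP and control cannot be assigned to diet. All 4 were labelled C57BL/6 and 17 months old, while their titles give 15 months, and neither the number of mice behind a library nor a genetic change is given in the sources used here. Per the labels, liver parenchymal cells and sorted live non-parenchymal cells were mixed 1:1 before loading, so shares of cells over a whole library partly reflect that mix.

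Cells that divide first copy their DNA and then separate it. In late G1 the Mcm2 to Mcm7 helicase is loaded onto origins with the help of Cdt1, and in S phase it opens the DNA while Pcna holds the polymerases on the template and Rrm1, Rrm2, Tyms and Tk1 supply deoxynucleotides. In G2 and M phase, Cdk1 with cyclins A and B, Aurora and Polo kinases, centromere proteins and kinesins condense, attach and separate the chromosomes. Cdc20 and Ube2c direct the destruction of the cyclins. Most hepatocytes of an adult liver are quiescent and can re-enter the cycle after loss of tissue, whereas many immune cells divide as they expand.

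The promoters of both groups differ in known elements: E2F sites are a known feature of replication genes, and a CHR element (cell cycle genes homology region) with CCAAT boxes is a known feature of mitosis genes. The 150 bases before the annotated start are shown for a helicase subunit and for the 6 mitosis members on which the results below turn. Sequences are from RefSeq, 5′ to 3′ on the strand of the gene, and capitals mark matches on either strand to the E2F words TTTCCCGC, TTTGGCGC, TTTCGCGC and TTTGCCGC, the CHR words TTTGAA and TTCGAA, and CCAAT.
Mcm6, GRCm38.p6 chr1:128359706-128359855, minus strand: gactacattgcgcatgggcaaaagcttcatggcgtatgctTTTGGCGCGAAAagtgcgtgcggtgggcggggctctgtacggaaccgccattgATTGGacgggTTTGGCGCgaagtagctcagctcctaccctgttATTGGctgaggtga
Top2a, GRCm38.p6 chr11:99024190-99024339, minus strand: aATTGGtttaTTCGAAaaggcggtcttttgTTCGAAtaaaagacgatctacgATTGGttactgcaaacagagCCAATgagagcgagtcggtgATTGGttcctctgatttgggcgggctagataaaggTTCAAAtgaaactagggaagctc
Mki67, GRCm38.p6 chr7:135716380-135716529, minus strand: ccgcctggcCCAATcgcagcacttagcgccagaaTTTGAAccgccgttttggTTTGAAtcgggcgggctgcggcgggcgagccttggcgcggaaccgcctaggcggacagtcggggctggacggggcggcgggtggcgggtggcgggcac
Ube2c, GRCm38.p6 chr2:164769779-164769928, plus strand: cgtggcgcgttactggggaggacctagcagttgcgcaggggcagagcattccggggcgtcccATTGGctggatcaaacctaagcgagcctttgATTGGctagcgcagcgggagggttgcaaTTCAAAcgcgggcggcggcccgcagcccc
Cdc20, GRCm38.p6 chr4:118437344-118437493, minus strand: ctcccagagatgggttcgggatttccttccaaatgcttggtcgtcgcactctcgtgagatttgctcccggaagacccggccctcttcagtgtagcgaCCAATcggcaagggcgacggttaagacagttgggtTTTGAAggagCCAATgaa
Cdkn3, GRCm38.p6 chr14:46760391-46760540, plus strand: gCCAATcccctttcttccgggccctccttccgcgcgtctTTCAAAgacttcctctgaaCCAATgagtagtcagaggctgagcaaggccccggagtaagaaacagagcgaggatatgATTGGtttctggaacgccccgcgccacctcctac
Cdca3, GRCm38.p6 chr6:124830026-124830175, plus strand: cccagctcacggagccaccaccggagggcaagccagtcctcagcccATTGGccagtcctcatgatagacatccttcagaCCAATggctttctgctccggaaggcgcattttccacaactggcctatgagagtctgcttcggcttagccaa
In Mcm6 one pair of E2F matches overlaps. The 250 bases before the start could be searched for 37 of the 45 members. An E2F word was present in 3 of 11 replication members (27.3%), 1 of 24 mitosis members (4.17%) and 517 of 27025 promoters of all genes (1.91%). A CHR word was present in 2 of 11 replication members (18.2%), 10 of 24 mitosis members (41.7%) and 17.4% of all promoters. CCAAT was present in 72.7% of the replication members, 91.7% of the mitosis members and 34.5% of all promoters. A match is a run of letters and not a bound site.

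After filters and doublet removal the libraries held 7491 HCC cells, 7902 high-AFP cells, 5129 low-AFP cells and 6036 control cells. Cells had a median of 4685 UMIs in HCC, 6301.5 in high-AFP, 7395 in low-AFP and 5443.5 in control. Clustering without cell cycle genes gave 35 clusters, of which 29 took 1 of 12 names from marker genes and 6 stayed unnamed. The HCC library stood apart: 8.19% of its barcodes had over 30% mitochondrial UMIs, against 26.5% in high-AFP, 42.0% in low-AFP and 42.7% in control, and 342 and 298 of its cells made up most of 2 unnamed clusters of low depth. Pairs of libraries shared 23 to 39 cell barcodes. With 1 library a group, library and group cannot be told apart, no test was possible, and the intervals given are exact 95% intervals for counting error only. Levels are summed UMIs of a class and library per 1000000 nuclear-encoded UMIs (CPM), on which fewer dividing cells and less RNA per cell cannot be told apart.

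Over all cells, replication members summed to 283.7 CPM (279.1 to 288.5) in HCC, 186.9 (183.7 to 190.1) in high-AFP, 181.9 (178.5 to 185.4) in low-AFP and 149.7 (146.1 to 153.4) in control. Mitosis members summed to 574.4 CPM (567.7 to 581.1) in HCC, 246.3 (242.7 to 249.9) in high-AFP, 234.9 (231.0 to 238.9) in low-AFP and 161.8 (158.1 to 165.6) in control. Both sums were highest in the HCC library, lowest in the control library and close to each other in the high-AFP and low-AFP libraries. Replication UMIs over mitosis UMIs gave 0.494 in HCC, 0.759 in high-AFP, 0.774 in low-AFP and 0.925 in control, so the mitosis sum differed more between libraries than the replication sum.

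Among helicase and licensing genes, Mcm6 was at 43.8 CPM in HCC, 18.7 in high-AFP, 18.9 in low-AFP and 13.6 in control. Its partner subunit Mcm3 was at 29.8 CPM in HCC, 20.4 in high-AFP, 19.3 in low-AFP and 18.1 in control, and Mcm7 at 26.9, 16.5, 16.7 and 13.3 CPM in the same order of libraries. The helicase subunits were highest in HCC. Of the fork and nucleotide genes, Pcna, the polymerase clamp, was at 36.0 CPM in HCC, 28.9 in high-AFP, 30.0 in low-AFP and 28.9 in control. Rrm1, the large subunit of ribonucleotide reductase, was at 21.1 CPM in HCC, 18.1 in high-AFP, 18.3 in low-AFP and 17.5 in control, and Tyms, thymidylate synthase, at 23.8 CPM in HCC, 13.4 in high-AFP, 13.2 in low-AFP and 9.72 in control. Pcna and Rrm1 differed little between libraries, and Tyms was highest in HCC and lowest in control.

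The mitosis members differed more. Ube2c, the ubiquitin-conjugating enzyme of the anaphase-promoting complex, was at 49.9 CPM in HCC, 20.9 in high-AFP, 17.6 in low-AFP and 11.4 in control. Cdk1, the mitotic kinase, was at 21.3 CPM in HCC, 11.8 in high-AFP, 10.7 in low-AFP and 6.36 in control. Birc5 (survivin, of the chromosomal passenger complex) was at 33.6 CPM in HCC, 18.1 in high-AFP, 16.2 in low-AFP and 9.05 in control. In each of these genes the order ran from HCC down to control. Cenpa, the centromeric histone, was at 58.0 CPM in HCC, 23.4 in high-AFP, 23.6 in low-AFP and 24.5 in control, and Racgap1, a cytokinesis regulator, at 24.7 CPM in HCC, 8.85 in high-AFP, 8.04 in low-AFP and 6.11 in control. Mki67, which coats mitotic chromosomes, was at 58.5 CPM in HCC, 19.6 in high-AFP, 19.5 in low-AFP and 12.9 in control. Top2a, the topoisomerase that untangles sister chromatids, was at 56.2 CPM in HCC, 21.4 in high-AFP, 23.6 in low-AFP and 15.0 in control. Cenpa alone of these did not separate the control library from the other liver libraries. Bub1, a checkpoint kinase, was among the members with the lowest levels, at 3.81 CPM in HCC, 2.23 in high-AFP, 2.36 in low-AFP and 1.24 in control.

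These library sums were held by different cells. In HCC, conventional dendritic-like cells held 33.5% of the mitosis UMIs with 8.30% of the cells, T-like cells 33.1% with 33.3%, macrophage-like cells 8.94% with 5.05% and hepatocyte-like cells 2.47% with 5.78%. In high-AFP, macrophage-like cells held 30.6% with 14.1% of the cells, conventional dendritic-like cells 22.3% with 4.06% and hepatocyte-like cells 19.3% with 42.2%. In low-AFP, macrophage-like cells held 37.4% with 12.5% of the cells and hepatocyte-like cells 6.29% with 38.2%. In control, conventional dendritic-like cells held 30.3% with 2.30% of the cells, endothelial-like cells 26.0% with 25.0% and hepatocyte-like cells 6.85% with 39.9%. Immune cells thus held most mitosis UMIs of the HCC library, and the library sums cannot be read as the level of any 1 cell class.

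**Figure D1:**
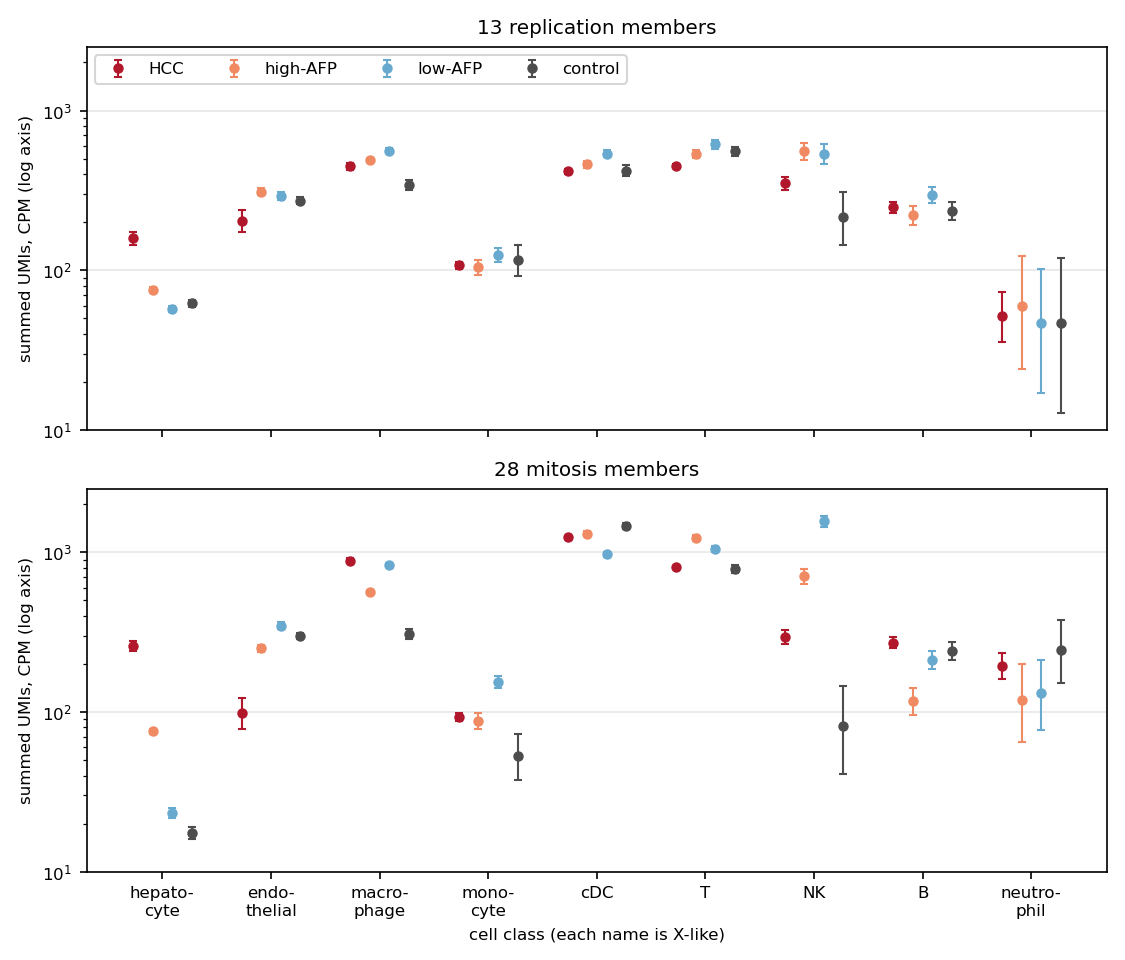
Summed UMIs of the 13 replication members (top) and 28 mitosis members (bottom) by cell class, in CPM on a log axis. Each point is 1 library and bars are 95% Poisson intervals; in hepatocyte-like cells the mitosis level was 258.6 CPM in HCC and 17.5 CPM in control.

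Hepatocyte-like cells had the widest difference between libraries in mitosis members among the classes with at least 50 cells in every library. Their mitosis members summed to 258.6 CPM (239.7 to 278.5) in HCC, 75.6 (73.1 to 78.2) in high-AFP, 23.4 (21.8 to 25.0) in low-AFP and 17.5 (16.0 to 19.1) in control. Replication members summed to 158.5 CPM (143.8 to 174.3) in HCC, 75.5 (73.0 to 78.1) in high-AFP, 57.1 (54.6 to 59.6) in low-AFP and 62.1 (59.2 to 65.1) in control. The mitosis level in HCC was thus 14.8 times that in control (13.1 to 16.6) and the replication level 2.55 times (2.29 to 2.84). In high-AFP the mitosis level was 4.32 times that in control (3.93 to 4.76) and the replication level 1.22 times. In low-AFP the mitosis level was 1.33 times that in control (1.19 to 1.49) and the replication level 0.918 times (0.861 to 0.979). These 3 comparisons share the control library. The high-AFP level was 3.24 times the low-AFP level for mitosis and 1.32 times for replication, and the HCC level 3.42 and 2.10 times the high-AFP level.

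Single mitosis members in hepatocyte-like cells followed the same order of libraries. Cdc20, the activator of the anaphase-promoting complex, was at 20.5 CPM in HCC, 3.09 in high-AFP, 0.825 in low-AFP and 0.428 in control, from 55, 140, 30 and 12 UMIs, and its ratio of HCC to control was 47.8 (25.3 to 98.1). Ube2c was at 26.4 CPM in HCC, 5.65 in high-AFP, 1.29 in low-AFP and 0.963 in control. Birc5 was at 21.95 CPM in HCC, 6.54 in high-AFP, 2.06 in low-AFP and 1.18 in control. All were highest in HCC, intermediate in high-AFP and at most 2.06 CPM in low-AFP and control. Top2a was at 17.1 CPM in HCC, 2.81 in high-AFP, 0.687 in low-AFP and 0.392 in control. Of the 46 Top2a UMIs in HCC 35 were in 1 cell, and as a mean over cells Top2a was at 5.59 in HCC, 2.90 in high-AFP, 0.582 in low-AFP and 0.222 in control. Cdca3, an adaptor for the destruction of Wee1, was at 17.1, 6.89, 1.73 and 1.14 CPM in the same order, and Mki67 at 14.9, 5.43, 0.879 and 0.606 CPM. Stmn1, the microtubule destabilizer stathmin, was at 98.2 CPM in HCC, 28.8 in high-AFP, 14.3 in low-AFP and 7.24 in control. Of the replication members, Pcna and Rrm1 kept close together: Pcna was at 18.2 CPM in HCC, 14.0 in high-AFP, 11.4 in low-AFP and 14.9 in control, and Rrm1 at 8.93, 8.57, 7.61 and 7.63 CPM. Rrm2, the cell cycle regulated subunit of ribonucleotide reductase, was at 24.6 CPM in HCC, 8.02 in high-AFP, 5.06 in low-AFP and 7.67 in control, and Mcm6 at 12.6, 4.79, 2.86 and 1.82 CPM. Thus Mcm6 and Rrm2 were higher in HCC, while Pcna and Rrm1 were nearly level. Other replication members were also higher in HCC. Without the cell of most mitosis UMIs in each library, Tyms was at 27.3 CPM in HCC and 6.07 in control. Mcm3 was then at 7.47 and 1.64 CPM and Gins2 at 5.98 and 0.535 CPM, while Tk1 differed less, at 15.3 and 9.74 CPM.

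By the rule for single genes (a log2 fold of at least 1 after adding 10 CPM, with at least 10 CPM in either library), 20 of the 45 members could be measured between HCC and control hepatocyte-like cells. Of these 11 were higher and 0 lower, against 11.4% of all measured genes higher. They were Tyms among 6 replication members, Cdk1, Cdc20, Ube2c, Cdkn3, Cdca3, Birc5, Mki67 and Top2a among 10 mitosis members, and Stmn1 and Hmgb2 of the widely expressed ones. All 11 passed the minimum only through the HCC library, as did 17 of the 20, so the count is a description and not support. Adding 1 CPM made it 18, leaving out cells with at least 2 mitosis UMIs in 1000 made it 2, and clustering with the cell cycle genes, which moves dividing cells out of the class, made it 1. In high-AFP against control 1 of 6 members was higher (Stmn1, log2 fold 1.17), against 1.46% of all genes. Stmn1 passed the minimum only through high-AFP, and this count was 0 under clustering with cell cycle genes. In low-AFP against control 0 of 5 were higher, against 0.959% of all genes. In HCC against high-AFP, Cdc20, Ube2c, Top2a and Stmn1 were higher, 4 of 20 members against 3.62% of all genes. Of these 4, 3 passed the minimum only through HCC, so this count too is a description. Without the cell of most mitosis UMIs in each library, Cdc20 was at 10.8 CPM in HCC and 2.90 in high-AFP. Ube2c was then at 14.6 and 5.17 CPM, Top2a at 16.1 and 2.65, and Stmn1 at 89.3 and 28.3. For Top2a, 43 UMIs were left in HCC, so the 1 cell with most of its UMIs was not the one left out. The Top2a difference still rests largely on that cell. In high-AFP against low-AFP 0 of 6 members were higher, against 0.241% of all genes.

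The hepatocyte-like signal came from few cells. After thinning each cell to 1000 UMIs, at least 2 mitosis UMIs were found in 12 of 387 HCC cells (3.10%, 1.61 to 5.35), 39 of 3245 high-AFP cells (1.20%), 8 of 1920 low-AFP cells (0.417%) and 5 of 2390 control cells (0.209%, 0.068 to 0.488). Without thinning the shares were 7.62% in HCC, 5.66% in high-AFP, 4.95% in low-AFP and 1.24% in control. Cells with at least 5 mitosis UMIs held 86.9% of the hepatocyte-like mitosis UMIs in HCC (14 cells), 78.0% in high-AFP (75 cells), 41.5% in low-AFP (18 cells) and 39.9% in control (8 cells). A single cell gave 25.8% of them in HCC and 24.6% in control, and without the highest cell of each library the levels were 192.8 CPM in HCC, 71.9 in high-AFP, 22.04 in low-AFP and 13.2 in control, in the same order. Hepatocyte-like cells were shallower in HCC (median 2794 UMIs) than in high-AFP (13814), low-AFP (18767) and control (14308).

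Background from other cells was read from 2 measures. Mature neutrophils do not divide, and neutrophil-like cells reached 3.60% of cells by the same thinned measure in HCC (8 of 222), so the thinned hepatocyte-like share of 3.10% was not above it. Most neutrophil-like mitosis UMIs were Kif23, however, and without Kif23 and without thinning the share with at least 2 was 7.39% in hepatocyte-like (median 2794 UMIs) and 1.78% in neutrophil-like cells (median 2698 UMIs) of HCC. In control the same shares were 1.24% in hepatocyte-like and 2.27% in neutrophil-like cells (1 of 44), so the control hepatocyte-like share was not above the neutrophil-like one, which rests on 1 cell. The 5 control hepatocyte-like cells with at least 2 mitosis UMIs in 1000 had no UMI of the 8 immune transcripts followed as signs of other cells. Those transcripts summed in hepatocyte-like cells to 253.4 CPM in HCC, 85.2 in high-AFP, 72.9 in low-AFP and 62.3 in control. Within HCC they were at 198.8 CPM in the 12 cells with mitosis UMIs and 252.6 CPM in the others, and 6 of the 12 cells had none. In high-AFP they were at 174.8 CPM in the 39 cells and 84.0 CPM in the others, and 21 of the 39 had none; their part in the result was not tested. HCC hepatocyte-like cells lay mostly in 1 cluster (311 of 433) and control ones mostly in another (1589 of 2411). Within the first of these clusters the mitosis level was 302.2 CPM in HCC, 142.7 in high-AFP, 107.9 in low-AFP and 34.7 in control.

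**Figure D2:**
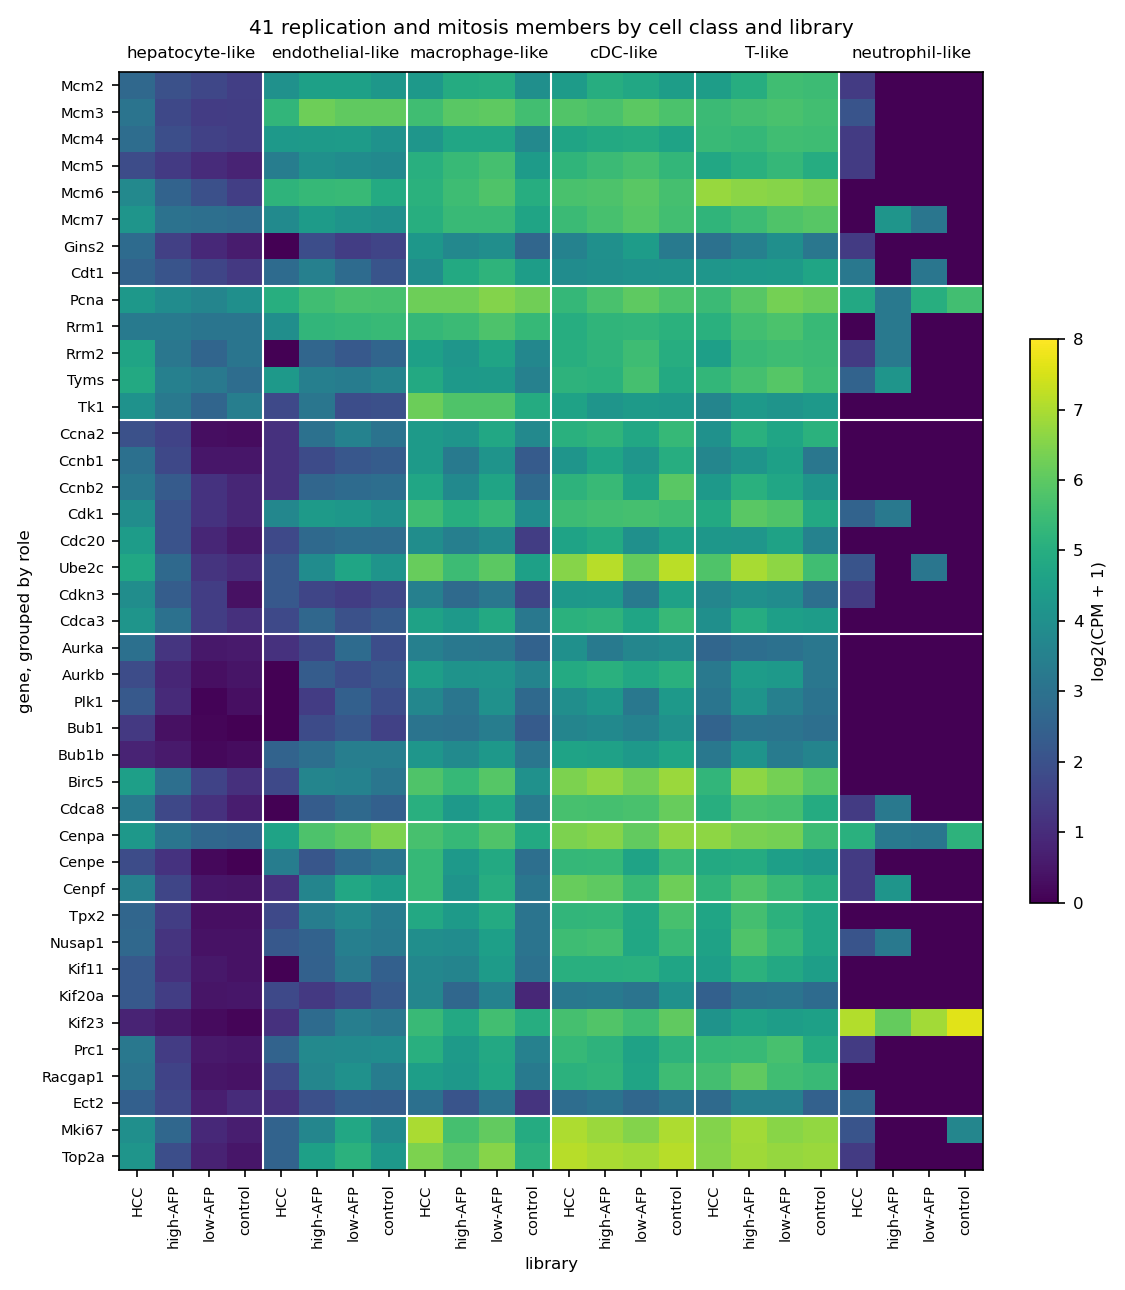
Level of each replication and mitosis member, log2(CPM + 1), by library within 6 cell classes; rows are grouped by role and each column is 1 library. The hepatocyte-like mitosis rows are brightest in HCC, and in neutrophil-like cells Kif23 stands alone, at 133 CPM in HCC and 198 CPM in control.

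A pair of unnamed clusters held nearly only HCC cells and had higher replication and mitosis sums than the hepatocyte-like cells of any library. In the cluster led by Oat and Adgrv1, with Glul (glutamine synthetase, a marker of hepatocytes around central veins) among its leading genes, 342 HCC cells had 177.5 CPM of replication and 697.9 CPM of mitosis members. In the cluster led by Akr1c18 and Afp, 298 HCC cells had 202.9 CPM of replication and 928.5 CPM of mitosis members. At least 2 mitosis UMIs in 1000 were found in 21 of 238 cells of the first (8.82%) and 29 of 201 cells of the second (14.4%), both above the neutrophil-like 3.60%. Both were shallow, with medians of 1481 and 1644.5 UMIs over all cells of each cluster, and with 1 cell and 13 cells from high-AFP they cannot be compared between libraries. Joining them and an unnamed cluster led by Tspan8 to the hepatocyte-like cells made the count of higher members in HCC against control 18.

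In this pair of clusters and in hepatocyte-like cells the mitosis UMIs had another make-up than in macrophage-like, T-like and conventional dendritic-like cells. The summed UMIs of the Tspan8 cluster lay closer to these classes, but most of them came from few cells. Cdc20, Cdkn3, the phosphatase that acts on Cdk1 and Cdk2, and Cdca3 together gave 24.3% of mitosis UMIs in the Oat cluster and 21.7% in the Afp cluster. In hepatocyte-like cells they gave 20% in HCC (139 of 695 UMIs), 18.7% in high-AFP, 18.5% in low-AFP and 10.6% in control. In macrophage-like cells they gave 5.36% in HCC, 6.07% in high-AFP, 5.93% in low-AFP and 3.94% in control, and in T-like cells 5.53%, 5.05%, 5.62% and 4.83% in the same order. The 3 genes thus took a larger share in hepatocyte-like cells than in macrophage-like and T-like cells of each library. Mki67 and Top2a were the reverse: 2.81% in the Oat cluster, 1.76% in the Afp cluster and 12.4% in HCC hepatocyte-like cells, against 23.7% in HCC macrophage-like, 22.6% in HCC T-like and 21.8% in HCC conventional dendritic-like cells. In the 82 HCC cells of the Tspan8 cluster Mki67 and Top2a gave 22.7%, as in the immune classes. Cdc20, Cdkn3 and Cdca3 gave 11.9% there, between the other clusters and the immune classes. In this cluster the cell of most mitosis UMIs gave 61.9% of them, and the 5 cells with at least 5 mitosis UMIs gave 89.0%. These shares thus rest largely on that cell, and the make-up without it was not tested. In CPM, the Oat cluster had Cdc20 at 54.4, Ube2c at 96.9, Birc5 at 86.0, Mki67 at 9.80 and Top2a at 9.80, and the Afp cluster Cdc20 at 65.4, Ube2c at 109, Birc5 at 105, Mki67 at 10.9 and Top2a at 5.45.

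The replication UMIs also differed in make-up. Mcm2 to Mcm7 gave 26.4% of replication UMIs in the Oat cluster, 19.5% in the Afp cluster and 32.6% in HCC hepatocyte-like cells, against 61.7% in HCC T-like and 55.8% in HCC conventional dendritic-like cells. HCC macrophage-like cells, at 40.02%, and the Tspan8 cluster, at 41.1%, lay between. Rrm2, Tyms and Tk1, the enzymes of deoxynucleotide supply, gave 54.0% in the Oat cluster, 62.4% in the Afp cluster and 43.4% in HCC hepatocyte-like cells, against 15.9% in HCC T-like and 21.5% in HCC conventional dendritic-like cells, with 27.5% in HCC macrophage-like cells and 30.3% in the Tspan8 cluster. These gene groups were chosen after their values were seen. Over the 28 mitosis members, the Spearman correlation between annotated transcript length and the log2 ratio of a member's share between these hepatic groups and immune classes of HCC lay between -0.626 and -0.406, so longer transcripts took lower shares. Over the 13 replication members it lay between -0.588 and 0.165 and had both signs. The members share libraries and depth, and the part of transcript length in the make-up was not tested.

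**Figure D3:**
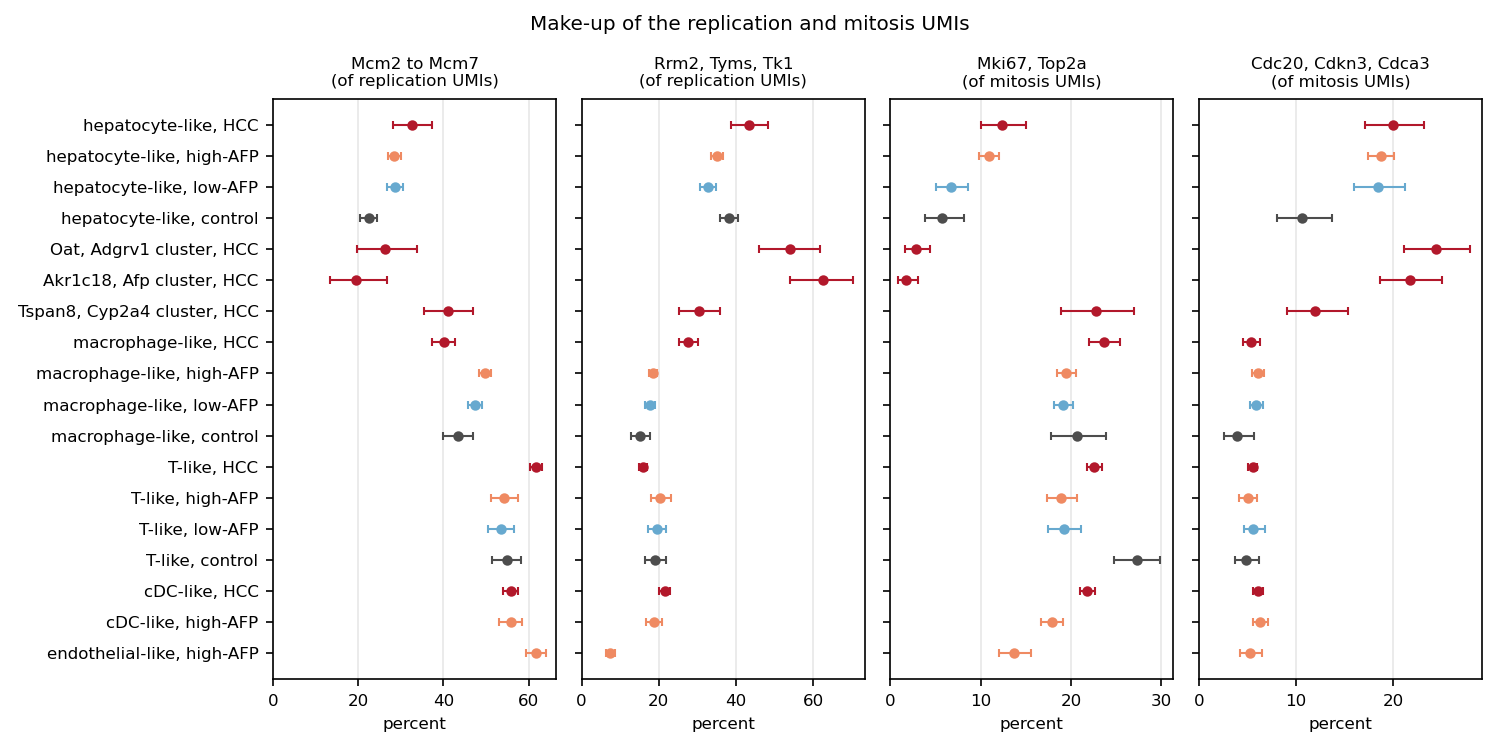
Share of replication UMIs (left pair of panels) or mitosis UMIs (right pair) given by 4 gene groups, by cell class and library, in percent with 95% binomial intervals. Cdc20, Cdkn3 and Cdca3 took 18.5% to 20% in hepatocyte-like cells of HCC, high-AFP and low-AFP, 10.6% in control ones, and 3.94% to 6.07% in macrophage-like cells.

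Macrophage-like cells had higher sums in all 3 other libraries than in control. Mitosis members summed to 888.6 CPM in HCC, 564.4 in high-AFP, 833.0 in low-AFP and 308.4 in control, and the HCC, high-AFP and low-AFP levels were 2.88, 1.83 and 2.70 times the control level. Replication members summed to 447.3 CPM in HCC, 492.4 in high-AFP, 559.8 in low-AFP and 342.8 in control, which gave 1.31, 1.44 and 1.63 times the control level. The 3 comparisons share the control library. Single cells held 19.2% of the mitosis UMIs in HCC and 29.3% in control, and without the highest cell of each library the mitosis level was 727.8 CPM in HCC, 541.4 in high-AFP, 785.3 in low-AFP and 220.8 in control. The order of HCC and low-AFP thus turned on 1 cell, while control was lowest both ways. The replication level was highest in low-AFP.

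Mki67 was at 125 CPM in HCC macrophage-like cells, 49.4 in high-AFP, 67.1 in low-AFP and 29.5 in control. Cenpe, the kinesin that carries chromosomes to the spindle equator, was at 39.9 CPM in HCC, 19.1 in high-AFP, 27.8 in low-AFP and 6.52 in control. Cenpf, a kinetochore protein, was at 39.9 CPM in HCC, 16.6 in high-AFP, 30.5 in low-AFP and 7.82 in control. These 3 were highest in HCC and lowest in control. Birc5 was at 54.4 CPM in HCC, 40.3 in high-AFP, 58.0 in low-AFP and 15.6 in control, and Ube2c at 69.2, 44.0, 62.4 and 22.2 CPM, with HCC and low-AFP close together. Of the replication members, Mcm5, a helicase subunit, was at 31.8 CPM in HCC, 41.2 in high-AFP, 48.6 in low-AFP and 19.98 in control, and Tk1, thymidine kinase, at 72.7, 54.5, 54.5 and 29.1 CPM. Pcna was at 73.8 CPM in HCC, 74.3 in high-AFP, 91.4 in low-AFP and 76.0 in control. Tk1 was highest in HCC, Mcm5 in low-AFP, and Pcna in HCC and high-AFP was at its control level.

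By the 2-fold rule 14 of 43 measured members were higher in HCC than in control macrophage-like cells, against 1.09% of all genes, and 7 of the 14 passed the minimum in both libraries. They were Tk1 alone of 13 replication members and 13 of 26 mitosis members. In low-AFP against control 10 of 41 were higher, against 0.393% of all genes, with 0 of 13 replication members, 9 of 24 mitosis members and Stmn1. Of these 10, 5 passed the minimum in both libraries and 5 only through low-AFP. In high-AFP against control 0 of 37 were higher, against 0.28% of all genes. Without the cell of most mitosis UMIs in each library the counts were 14 in HCC, 5 in high-AFP and 17 in low-AFP. The median log2 fold of the measured members was 0.65 in HCC, 0.54 in high-AFP and 0.76 in low-AFP, beside -0.18, -0.16 and -0.09 over all genes. The HCC count became 8 with at most 15% mitochondrial UMIs, 6 with the mean over cells and 0 without the cells of at least 2 mitosis UMIs, and the low-AFP count 24 with 1 CPM added, 6 at a finer clustering and 1 without those cells. In HCC against high-AFP 1 of 43 members was higher (Mki67, log2 fold 1.18), against 0.355% of all genes. At least 2 mitosis UMIs in 1000 were found in 8.50% of HCC, 6.08% of high-AFP, 9.01% of low-AFP and 2.52% of control macrophage-like cells.

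T-like cells had high sums of both kinds in every library. Mitosis members summed to 807.0 CPM in HCC, 1231 in high-AFP, 1046 in low-AFP and 781.6 in control, and replication members to 448.6 CPM in HCC, 535.1 in high-AFP, 613.1 in low-AFP and 555.9 in control. The replication level of HCC was the lowest, at 0.807 times that of control, and the mitosis level of HCC was 1.03 times that of control. Cenpa was at 99.3 CPM in HCC, 82.6 in high-AFP, 79.3 in low-AFP and 43.7 in control T-like cells, and was the only one of 38 measured members higher in HCC than in control, against 1.99% of all genes. Ube2c was at 54.7 CPM in HCC, 124 in high-AFP, 99.8 in low-AFP and 45.7 in control, and was the only one of 42 higher in high-AFP than in control, against 1.1% of all genes. With 1 CPM added that count was 6, and with the mean over cells, clustering with cell cycle genes or mitotic cells left out it was 0. In low-AFP against control 0 of 42 were higher, against 0.825% of all genes. Ube2c, Birc5 and Stmn1 were lower in HCC than in high-AFP, 3 of 42 members against 4.77% of all genes, a share near the background. Mcm6, in contrast, was at 107 CPM in HCC, 96.1 in high-AFP, 93.0 in low-AFP and 81.4 in control, and Mki67 at 89.9, 118, 95.2 and 103 CPM. HCC T-like cells lay mostly in other clusters than control ones, and within the cluster that held most control cells the mitosis level was 442.6 CPM in HCC, 637.4 in high-AFP, 988.7 in low-AFP and 738.4 in control. In a cluster led by Cd28 and Gzmk, 35 high-AFP cells held 1534 of the 2279 high-AFP mitosis UMIs. There 31 low-AFP cells held 678 of 1834, and only 4 control cells lay in it.

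Conventional dendritic-like cells had mitosis sums of 1243 CPM in HCC, 1311 in high-AFP, 969.8 in low-AFP and 1460 in control, and replication sums of 415.2, 460.1, 537.45 and 418.7 CPM in the same order. The mitosis level was lowest in low-AFP, at 0.664 times that of control, where the replication level was the highest, at 1.28 times that of control. The clusters of this class differed. In the one led by Cd209a and Clec10a, low-AFP was lowest in both sums. Mitosis members there were at 399.2 CPM in low-AFP and 1384 in control, and replication members at 315.4 and 517.5. In the cluster led by Xcr1 and Naaa, replication members were at 821.2 CPM in low-AFP and 423.3 in control, and mitosis members at 1654 and 1769. Of 44 measured members, 0 were higher in HCC than in control, against 0.821% of all genes, and 0 were lower, against 2.89%. Ccnb2, a B-type cyclin, was at 34.9 CPM in HCC, 41.2 in high-AFP, 23.5 in low-AFP and 60.5 in control, and was the only one of 44 lower in low-AFP than in control, against 0.236% of all genes. Gins2, a helicase cofactor, was at 10.7 CPM in HCC, 15.3 in high-AFP, 20.3 in low-AFP and 8.74 in control. Mki67 was at 130 CPM in HCC, 110 in high-AFP, 90.5 in low-AFP and 129 in control. At least 2 mitosis UMIs in 1000 were found in 10.6% of the HCC, 12.8% of the high-AFP, 11.6% of the low-AFP and 10.1% of the control conventional dendritic-like cells.

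In endothelial-like cells both sums were lower in HCC than in control. Mitosis members summed to 98.4 CPM in HCC, 250.9 in high-AFP, 347.9 in low-AFP and 300.2 in control, and replication members to 204.0, 310.8, 292.9 and 272.3 CPM. Only 88 endothelial-like cells were in HCC, and 1 of them gave 42.7% of the mitosis UMIs. Of these cells 71 lay in a cluster led by Rspo3 and Vwf, while 1189 of 1506 control cells lay in one led by Bmp2 and Kdr. Within the Rspo3 cluster neither sum was lower in HCC than in control, but the mitosis sum was lower in HCC than in high-AFP. Mitosis members there were at 52.6 CPM in HCC (37.0 to 72.4), 97.4 in high-AFP (74.5 to 125.2), 49.3 in low-AFP and 49.2 in control (24.5 to 88.0). Replication members were at 203.1, 188.5, 163.5 and 169.9 CPM in the same order. Rrm1 was at 14.4 CPM in HCC, 37.3 in high-AFP, 38.9 in low-AFP and 41.04 in control, Cenpa at 24.0, 54.0, 62.7 and 84.7 CPM, and Cenpf at 1.20, 11.5, 26.5 and 20.8 CPM. These 3 of 20 measured members were lower in HCC than in control, against 8.4% of all genes, and 1 of the 3 passed the minimum only through control. No member of 23 or 24 was past the rule in high-AFP or low-AFP against control, where 0.999% and 0.844% of all genes were higher.

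Among the smaller classes, NK-like cells had 12 of 37 members lower in HCC than in high-AFP, against 5.32% of all genes, with Rrm2, Ube2c, Cenpf and Top2a among them. Of these 12, 5 passed the minimum only through high-AFP. In high-AFP against low-AFP, 12 of 43 were lower, all of them mitosis members, against 1.88% of all genes, and 4 passed only through low-AFP. Of 5 low-AFP NK-like cells that had at least 5 mitosis UMIs, 1 gave 31.5% of the mitosis UMIs, and in high-AFP 1 cell gave 38.4%. In plasmacytoid dendritic-like cells 6 of 17 members were higher in HCC than in control, against 1.48% of all genes, and 5 of the 6 passed the minimum only through HCC. A single HCC cell gave 75.8% of the mitosis UMIs there, and without it the level was 74.1 CPM in HCC, against 61.4 CPM in control. Cholangiocyte-like cells had few mitosis UMIs, with 40.1 CPM in HCC, 23.4 in high-AFP, 48.4 in low-AFP and 16.7 in control, beside replication sums of 191.9, 178.6, 233.3 and 177.7 CPM.

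The ratio of replication to mitosis UMIs set the classes apart. In hepatocyte-like cells it was 0.613 (0.542 to 0.693) in HCC, 0.999 (0.952 to 1.05) in high-AFP, 2.44 (2.25 to 2.65) in low-AFP and 3.55 (3.21 to 3.93) in control. In macrophage-like cells it was 0.503 in HCC, 0.872 in high-AFP, 0.672 in low-AFP and 1.11 in control. In both classes it was lowest in HCC and highest in control. In T-like cells it was 0.556 in HCC, 0.435 in high-AFP, 0.586 in low-AFP and 0.711 in control, and in conventional dendritic-like cells 0.334, 0.351, 0.554 and 0.287. In endothelial-like cells it was highest in HCC, with 2.07 in HCC, 1.24 in high-AFP, 0.842 in low-AFP and 0.907 in control, but these cells lay in different clusters. Within the Rspo3 cluster it was 3.86 (2.68 to 5.71) in HCC, 1.93 (1.41 to 2.68) in high-AFP, 3.32 (1.96 to 5.87) in low-AFP and 3.45 (1.73 to 7.49) in control. Counting as replication only Mcm2 to Mcm7, Pcna and Rrm2, the hepatocyte-like ratios were 0.365 in HCC, 0.574 in high-AFP, 1.40 in low-AFP and 2.08 in control, in the same order.

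**Figure D4:**
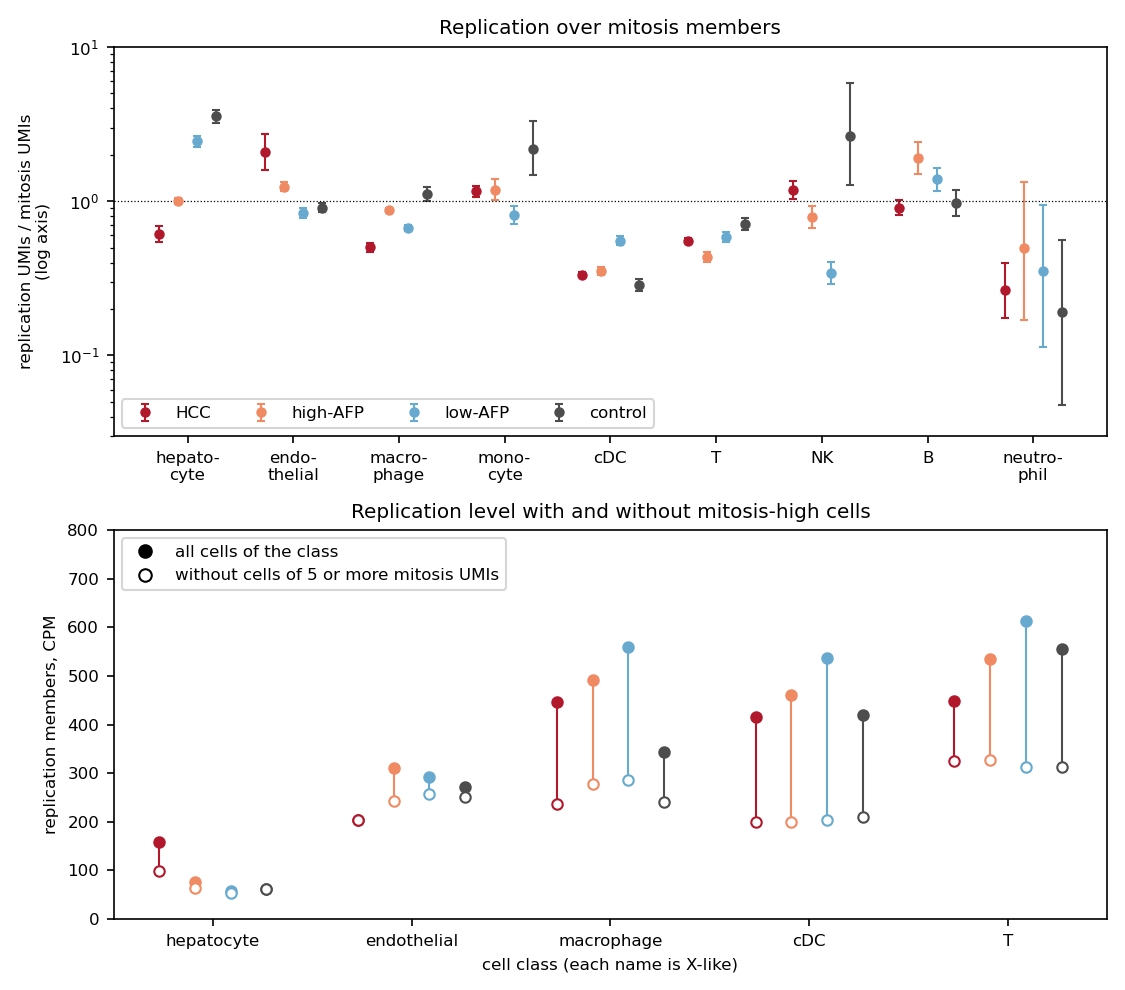
Top, replication UMIs over mitosis UMIs by class and library on a log axis, with 95% intervals. Bottom, replication level in CPM with all cells (filled) and without cells of at least 5 mitosis UMIs (open); the open points of T-like cells lie between 312.2 and 326.8 CPM.

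Among T-like, conventional dendritic-like and macrophage-like cells, those with many mitosis UMIs also held much of the replication signal. Without the cells of at least 5 mitosis UMIs, T-like cells had 324.1 CPM of replication members in HCC, 326.8 in high-AFP, 312.2 in low-AFP and 312.3 in control. Conventional dendritic-like cells had 200.3 CPM in HCC, 200.4 in high-AFP, 204.3 in low-AFP and 209.6 in control, and macrophage-like cells 237.6, 277.0, 285.1 and 240.6 CPM. Within the first pair of classes these levels were nearly the same in the 4 libraries, where the levels with all cells spanned 448.6 to 613.1 CPM and 415.2 to 537.45 CPM. Hepatocyte-like cells kept a difference, with 98.8 CPM in HCC, 63.9 in high-AFP, 53.9 in low-AFP and 61.0 in control. The limit of 5 UMIs is met more easily by deeper cells.

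After thinning, 213 of 25058 cells had at least 2 UMIs of both sets, 507 of replication only and 515 of mitosis only. Replication UMIs were found in 29.3% of the cells with mitosis UMIs and in 2.08% of the others. By library the share among cells with mitosis UMIs was 23.5% in HCC, 28.3% in high-AFP, 38.5% in low-AFP and 39.2% in control.

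Members differed in how far they were held by cells in which other mitosis members were found. Cells with at least 5 UMIs of other mitosis members were about 3.69% of all cells and held 6.12% of all UMIs. They held 96.2% of the UMIs of Ccna2, cyclin A, 95.9% of Cenpf, 93.6% of Birc5, 92.5% of Ube2c, 87.6% of Mki67 and 85.7% of Top2a. Of the replication members they held 70.6% of Rrm2, 49.96% of Mcm5, 32.2% of Mcm6, 28.4% of Cdt1 and 24.3% of Pcna. Rrm2 lay nearest to the mitosis members. Those cells held at most 49.96% of the UMIs of every other replication member, with the lowest shares in Pcna and Cdt1. Among mitosis members Kif23, a kinesin of cytokinesis, was at 66.1%, Racgap1 at 56.2% and Cenpa at 41.3%, the lowest of the mitosis members. Stmn1 was at 72.8%, Hmgb2 at 47.2%, Tuba1b, an alpha-tubulin, at 35.5% and H2afz, a histone variant, at 23.2%.

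**Figure D5:**
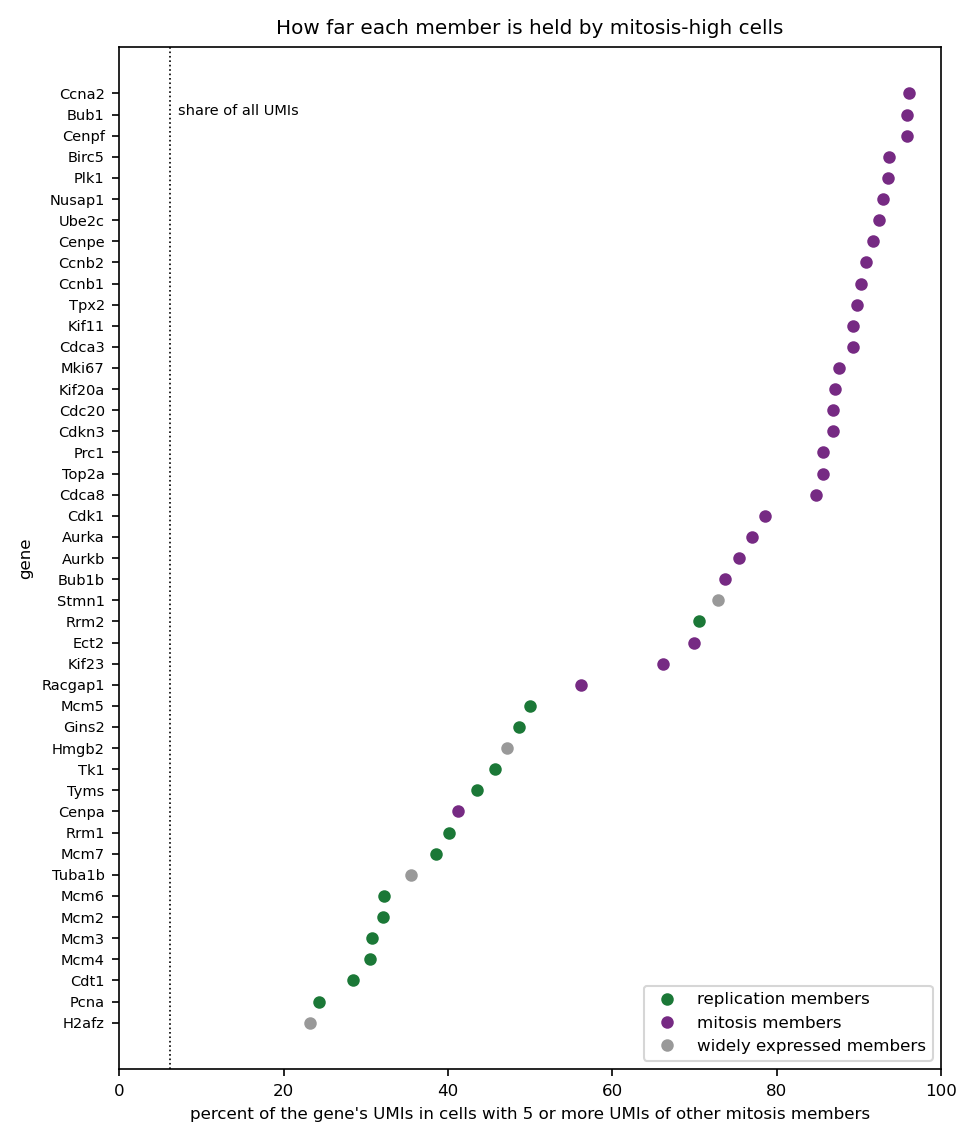
Percent of each member's UMIs, over all libraries, held by cells with at least 5 UMIs of other mitosis members. The dotted line is the share of all UMIs in such cells (6.12%); the points run from Ccna2 at 96.2% to H2afz at 23.2%.

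Over 40 pairs of class and library, the replication sum ranged 13.1-fold, between 46.6 and 613.1 CPM, and the mitosis sum 93.6-fold, between 16.7 and 1560 CPM. Their Spearman correlation was 0.817, a description over points that share libraries and depth. The single members most like the mitosis sum were Nusap1, a spindle protein (0.925), Top2a (0.924), Tpx2, which activates Aurora A (0.923), and Ube2c (0.923), and the least like it was Kif23 (0.535).

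Kif23 departed most from the other mitosis members in neutrophil-like cells. It was at 133 CPM in HCC, 68.1 in high-AFP, 117 in low-AFP and 198 in control, from 82, 8, 15 and 17 UMIs. The other 27 mitosis members together were at 61.7 CPM in HCC, 51.1 in high-AFP, 15.5 in low-AFP and 46.7 in control. Of 55 HCC neutrophil-like cells with a Kif23 UMI, 45 had no UMI of another mitosis member. Kif23 gave 68.3% of the mitosis UMIs of HCC neutrophil-like cells. In monocyte-like cells it gave 16.0% in HCC, 5.19% in high-AFP, 3.65% in low-AFP and 2.63% in control. Of 144 HCC monocyte-like cells with a Kif23 UMI, 70 had no UMI of another mitosis member. In macrophage-like cells it gave 4.69%, 4.89%, 5.60% and 9.86% in the same order of libraries. Hepatocyte-like cells had Kif23 at 0.744 CPM in HCC, 0.420 in high-AFP, 0.165 in low-AFP and 0.0713 in control.

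Of 105 other cell cycle genes, 20 of G1 and S entry, 33 of origins and forks and 52 of mitosis were followed by the same rule. In hepatocyte-like cells of HCC against control, 5 of 10 measured genes of G1 and S entry, 1 of 15 of origins and forks and 6 of 16 of mitosis were higher, beside the same 11.4% of all genes. In high-AFP against control 2 of 7, 0 of 7 and 0 of 14 were higher, and in low-AFP 2 of 7, 0 of 7 and 0 of 12. Such genes could pass the minimum through 1 library alone, and how many did was not counted. These counts are thus a description and not support. Cdkn1a, the inhibitor p21, was at 96.4 CPM in HCC, 32.6 in high-AFP, 85.0 in low-AFP and 15.8 in control hepatocyte-like cells. Ccnd1, cyclin D1 of G1, was at 74.8 CPM in HCC, 65.3 in high-AFP, 144.8 in low-AFP and 22.1 in control. In low-AFP these genes were thus higher than in control while the mitosis sum was 1.33 times that of control. In macrophage-like cells Cdkn2a, which encodes the inhibitors p16 and p19Arf, was at 3.53 CPM in HCC, 1.35 in high-AFP, 3.13 in low-AFP and 25.2 in control, and was lower by the rule in all 3 comparisons, where 5.84%, 1.8% and 1.39% of all genes were lower.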

How the data were processed

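RNA of single liver cells was measured in 4 libraries of C57BL/6 mice, 1 a group, grouped by title. Per the labels' protocols, a 10x Genomics 3' kit (version 2) was used. The deposited values are raw UMI counts per gene and barcode, made by the authors with Cell Ranger 3.0.2 per the file headers, and the submitters' processing notes also name R 3.0, Seurat 3 and mm9. No coordinate of the files was used. Coordinates and promoters are from RefSeq on GRCm38.p6.

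Barcodes were kept with at least 300 genes, 500 UMIs and at most 30% mitochondrial UMIs. Scrublet (scanpy 1.11.5) marked under 0.5% by its automatic threshold in every library, so the top-scoring ones were taken out at a rate of 0.8% per 1000 barcodes: 513 in HCC, 575 in high-AFP, 230 in low-AFP and 323 in control. Cells were scaled to 10000 UMIs and log-transformed. From 2000 variable genes without cell cycle genes, 30 principal components were computed, and a graph of 15 neighbours per cell was partitioned with leidenalg 0.10.2 (resolution 1) without integrating libraries. Clusters were named from marker lists, and a rule that leaves a cluster unnamed when a second class scores close was added after seeing the clusters. Class names rest on this rebuild. Counts were summed by class and library as CPM of nuclear-encoded UMIs. Log2 folds add 10 CPM, and classes needed 50 cells in both libraries. For shares, cells were thinned to 1000 UMIs, and shallower cells were left out. Intervals are exact Poisson or Clopper-Pearson at 95% (scipy 1.17.1). With 1 library a group nothing was tested. Reads were not deduplicated further, and levels of different genes are not per length.

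Named were the 3 members of highest level in each role, the 6 of largest fold in a comparison, and up to 4 other cell cycle genes each way. Some genes that make up a count or a make-up group were named after their values were seen. The members and lists were chosen with earlier results of these data known. Of the steps, only the 2-fold rule was tested on simulated data, with counts drawn for summed classes and not for single cells. Levels as low as those of most members in hepatocyte-like cells were not simulated.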

Additional observations from a re-analysis of the deposited data

Results flagged for a closer look

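Differences between cell classes within 1 comparison were flagged where the summed mitosis members were at least 2-fold higher in one class and at least 2-fold lower in another. With 1 library a group these differences were not tested. In HCC over control the ratio was 14.8 in hepatocyte-like, 2.88 in macrophage-like and 4.87 in plasmacytoid dendritic-like cells, and 0.328 in endothelial-like cells. In HCC over high-AFP it was 3.42 in hepatocyte-like and 2.33 in B-like cells, and 0.392 in endothelial-like and 0.417 in NK-like cells. In high-AFP over control it was 4.32 in hepatocyte-like and 0.483 in B-like cells. In high-AFP over low-AFP it was 3.24 in hepatocyte-like, 0.484 in cholangiocyte-like and 0.453 in NK-like cells.

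Several of these ratios rest on 1 cell or on different clusters. Without the cell of most mitosis UMIs in each library, the plasmacytoid dendritic-like ratio of HCC over control was 1.32, the B-like ratio was 1.96 for HCC over high-AFP and 1.03 for high-AFP over control, and the cholangiocyte-like ratio of high-AFP over low-AFP was 0.581, so these were no longer 2-fold. A single control B-like cell gave 55.6% of the mitosis UMIs there. The other ratios stayed at least 2-fold, with 14.6 for hepatocyte-like and 3.30 for macrophage-like cells in HCC over control. Of the B-like cells, 717 of 726 in HCC and 8 of 326 in high-AFP lay in 1 cluster, and 4 in HCC and 301 in high-AFP in another. Of the endothelial-like cells of HCC, 71 of 88 lay in 1 cluster. The mitosis sums there were 52.6 CPM in HCC, 97.4 CPM in high-AFP and 49.2 CPM in control.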

How the results depend on the processing

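No paired analysis was possible because each group was 1 library. Over all settings run, 238 values stayed close to those reported and 142 moved. Some of the 238 could not move. A 2-fold call after adding 10 CPM already needs at least 10 CPM in the higher library, so dropping that minimum left every count as it was. The tally is thus not a measure of stability. Counts of higher members against control, with the reported count in brackets, were as follows. Adding 1 CPM gave 18 [11] for hepatocyte-like HCC, 8 [0] and 24 [10] for macrophage-like high-AFP and low-AFP, 6 [1] and 5 [0] for T-like high-AFP and low-AFP, and 2 lower [0] for T-like HCC. Clustering with cell cycle genes gave 1 and 0 [1] for hepatocyte-like HCC and high-AFP, 1 for macrophage-like high-AFP and 0 for T-like high-AFP. Leaving out cells with at least 2 mitosis UMIs gave 2 and 0 for hepatocyte-like HCC and high-AFP, 0 [14], 1 and 1 for macrophage-like HCC, high-AFP and low-AFP, and 0 for T-like high-AFP. Joining 3 unnamed clusters gave 18 for hepatocyte-like HCC. At most 15% mitochondrial UMIs gave 0 for hepatocyte-like high-AFP and 8 for macrophage-like HCC. The mean over cells moved 35 of the 48 levels recomputed for Pcna, Top2a, Cdc20 and Kif23 in hepatocyte-like, macrophage-like and T-like cells, and gave 6 for macrophage-like HCC and 0 for T-like high-AFP. Keeping doublets gave 1 for macrophage-like high-AFP. Leaving out the cell of most mitosis UMIs of each class and library gave 5 [0] for macrophage-like high-AFP and 17 [10] for macrophage-like low-AFP. Leiden resolution 2 gave 6 for macrophage-like low-AFP and, for T-like cells, 0 higher and 2 lower in HCC, 1 lower in high-AFP, and 2 higher and 1 lower in low-AFP.

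Shares of cells follow in the order HCC, high-AFP, low-AFP and control. Clustering with cell cycle genes gave 0.272%, 0.157%, 0.105% and 0% for hepatocyte-like and 2.61%, 1.53%, 1.65% and 1.47% for T-like cells. Unthinned cells gave 7.62%, 5.66%, 4.95% and 1.24% for hepatocyte-like, 19.3%, 23.2%, 25.9% and 8.65% for macrophage-like, and 28.2%, 17.0%, 16.9% and 11.5% for T-like cells. At least 1 UMI gave 9.30%, 3.76%, 1.88% and 1.17% for hepatocyte-like, 19.7%, 14.8%, 15.6% and 9.84% for macrophage-like, and 20.2%, 19.2%, 15.7% and 11.1% for T-like cells. At least 3 UMIs gave 4.42% in high-AFP for macrophage-like, and 2.07% in HCC and 4.19% in low-AFP for T-like cells. The 15% limit gave 0.754% for control hepatocyte-like cells, and cells with no immune UMI 0.950% in low-AFP.

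Replication over mitosis ratios, in the same order, were 2.55, 2.60, 3.10 and 5.53 for hepatocyte-like and 1.43, 1.85, 2.30 and 2.81 for T-like cells clustered with cell cycle genes, so there the HCC and high-AFP hepatocyte-like ratios lay above 1. The 15% limit gave 0.541, 0.897, 1.94 and 2.61 for hepatocyte-like cells. Cells with no immune UMI gave 0.939 in high-AFP, 1.73 in low-AFP and 2.60 in control. Keeping doublets gave 1.67 in low-AFP and 2.49 in control for hepatocyte-like, and 0.838, 0.712 and 1.23 in high-AFP, low-AFP and control for macrophage-like cells. Without the cell of most mitosis UMIs it was 0.810 in HCC and 4.65 in control for hepatocyte-like, 0.612, 0.910, 0.713 and 1.51 for macrophage-like, and 0.576 in HCC and 0.694 in low-AFP for T-like cells. Replication as Mcm2 to Mcm7, Pcna and Rrm2 gave 0.365, 0.574, 1.40 and 2.08 for hepatocyte-like, 0.309, 0.596, 0.458 and 0.769 for macrophage-like, and 0.423, 0.319, 0.432 and 0.536 for T-like cells. The cause of these shifts was not tested. The automatic doublet threshold was not run, and the settings on immune transcripts, joined clusters, mitotic cells and top cells were chosen after seeing the data.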

Other observations

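An unnamed cluster led by haemoglobin and immunoglobulin genes held 44 HCC, 21 high-AFP, 14 low-AFP and 27 control cells. Its mitosis members were at 2931 CPM in HCC, 209.2 in high-AFP, 1049.97 in low-AFP and 90.5 in control, and its replication members at 400.3 CPM in HCC. The cluster mixes red cell and plasma cell markers, and the values are given with no comparison.

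Barcodes marked as doublets held a larger share of mitosis UMIs than of barcodes in each library: 11.7% against 6.41% in HCC, 10.7% against 6.78% in high-AFP, 4.78% against 4.29% in low-AFP and 8.01% against 5.08% in control. Their share of all nuclear-encoded UMIs was 11.4% in HCC, 5.75% in high-AFP, 2.93% in low-AFP and 4.46% in control. In HCC the mitosis share was thus near the share of all UMIs. The part of doublets in the levels was not tested beyond keeping them, for which the values are given with the other settings.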
